A study of Mus musculus with 4 samples.

Results

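The genes described here encode potassium, calcium and sodium channels, their accessory subunits, the HCN and TRP cation channels and the channels that release calcium from the endoplasmic reticulum. They were chosen by gene symbol alone (Kcn, Cacn, Scn, Hcn, Trpc, Trpm, Trpv, Ryr and Itpr genes with Dpp6 and Dpp10), and 79 of the 5614 genes with reads in either library matched. The cells were neural stem cell-like, haploid and of the 129Sv mouse strain; they had received a transposase and a gene trap carried by the piggyBac transposon, and the antibiotic G418 had selected trapped cells. Genomic DNA next to the transposon was amplified by splinkerette PCR, which uses an adapter ligated to cut DNA, and sequenced. Library 1 and library 2 each pooled 2 samples in 1 table, and the labels give both libraries the same strain, culture and transfection.

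The cells of both libraries had been differentiated from haploid embryonic stem cells, first as embryoid bodies and then in N2B27 medium with FGF2, EGF, the BMP receptor inhibitor LDN193189, the activin and TGF-beta receptor inhibitor SB431542 and a ROCK inhibitor, which was Y-27632, Thiazovivin or both. The labels do not say which ROCK inhibitor a library received, nor whether the selection marker of the trap needs a host promoter. The reads come from genomic DNA, so they carry no expression and the labelled cell type could not be set against its markers. A library is 1 value here, with no replicate, and no difference between the libraries was tested.

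Voltage-gated channels open when the membrane potential changes. In neurons, sodium channels carry the rise of the action potential, potassium channels end it and set the resting potential, and calcium channels link it to transmitter release and to gene expression. A large pore-forming subunit is usually joined by accessory subunits that set its traffic and kinetics. Ryanodine receptors and inositol trisphosphate receptors are calcium channels of internal stores. In a haploid cell a trap that disrupts such a gene leaves no intact copy.

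Library 1 held 55442 nonredundant and 877870 redundant reads over 4184 genes, and library 2 held 48750 and 1300140 over 3168 genes. The values below are nonredundant reads per gene unless redundant reads are named. They are PCR products and count neither insertions nor cells, and every interval given is a 95% interval that covers counting error alone. The tables give no insertion position, strand or exon, so where in a channel gene the reads lie is not known here and no sequence is shown.

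Of the genes with reads, 70 of 4184 in library 1 and 47 of 3168 in library 2 were channel genes. Channel genes held 682 reads in library 1, or 1.23% of the library (1.14 to 1.33), and 333 reads in library 2, or 0.683% (0.612 to 0.760). Most of these reads lay in a few genes, and they were different genes in the 2 libraries. In library 1 the leaders were the sodium-activated potassium channel Kcnt2, the inositol trisphosphate receptor Itpr1, the calcium channel pore Cacna1c and the potassium channels Kcnq1 and Kcnh5, which together held 78.7% of the channel reads. In library 2 the leaders were the calcium channel accessory subunits Cacna2d3 and Cacna2d2, the sodium channel Scn8a and the potassium channels Kcnk12 and Kcnh1, which together held 61.3%. These shares moved with single genes and with the total. Without each library's own leading channel gene they were 0.885% in library 1 and 0.550% in library 2, and without the 10 genes with most reads in each library 1.47% and 1.18%. With redundant reads they were 1.43% and 0.161%, and for pores alone the share of library 2 was 0.396%. With the 2 leading genes of library 1, Kcnt2 and Itpr1, left out of both libraries, a choice made after their values were seen and able to lower library 1 alone by much, the shares were 0.563% and 0.675%.

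A gene counts as listed in a library if it has at least 1 read there. Of the 79 channel genes, 70 were listed in library 1, 47 in library 2 and 38 in both. The shared genes made up 54.3% of the channel genes of library 1 and 80.9% of those of library 2, against 41.5% and 54.9% over all listed genes. A single read was all that 30 of the 70 channel genes had in library 1 (42.9%) and that 15 of the 47 had in library 2 (31.9%). Over all listed genes these shares were 53.7% and 59.7%. The median listed channel gene had 2 reads in each library, and the median of all listed genes was 1 in each. Gene length was not taken into account in these comparisons. Of the 79 channel genes, 62 were in the 2 longest of the 10 length classes described below. In the longest and the next class 81.5% and 56.9% of all genes were listed in either library.

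At 10 or more reads stood 5 channel genes in library 1, 7.14% of those listed, and 8 in library 2, 17.0% of those listed. The background was 11.9% of all genes with reads in library 1 and 9.28% of those in library 2, so the channel genes lie below it in the one library and above it in the other, each time on few genes. No channel gene reached 10 reads in both libraries, and over all listed genes 0.766% did, so that 0 of 79 is near the background. Of the 13 genes at 10 or more reads, Kcnq5 and Ryr3 had the fewest, with 13 each in library 2. The other 66 had at most 7 reads in either library. This step marks no separate group, for the intervals overlap. The share of Ryr3 in library 2 had 0.0142% to 0.0456%, and that of Trpm3, with 7 reads in library 1, had 0.00508% to 0.0260%. Genes with at least 2 reads in both libraries numbered 22 of the 79, against 11.8% of all listed genes, again without regard to gene length.

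**Figure D1:**
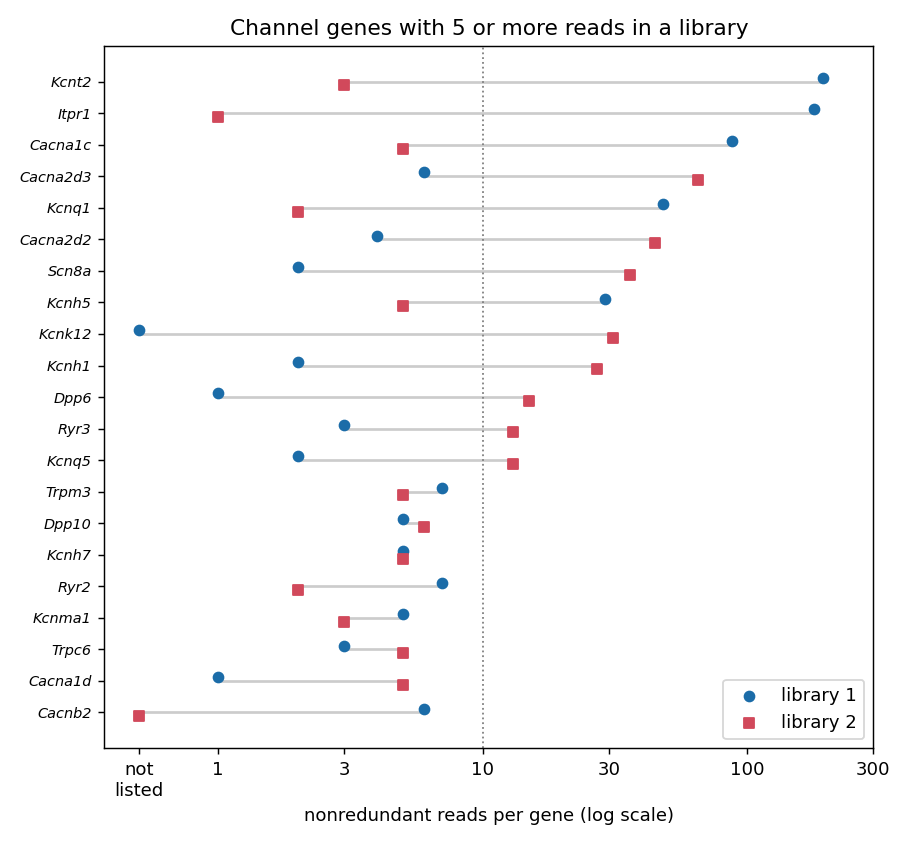
Nonredundant reads per gene on a log scale for the channel genes with 5 or more reads in a library, with library 1 as circles, library 2 as squares, and a gene without reads placed at the left as not listed. The dotted line marks 10 reads; in each of the 13 upper genes one library lies above it and the other below.

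Among the calcium- and sodium-activated potassium channels, Kcnt2 had 193 reads in library 1 (0.348% of the library, 0.301 to 0.401) and 3 in library 2. It encodes a channel of the Slack family, opened by intracellular sodium, and ranked 64th of the 4184 genes of library 1. Its share of reads was 56.6 times as high in library 1 as in library 2 (19.1 to 277). Its paralog Kcnt1 had no read in library 1 and 1 read in library 2. Kcnma1, the large-conductance calcium-activated BK channel, had 5 reads in library 1 and 3 in library 2, so reads were few in both libraries. Kcnu1, the related channel of sperm, had 1 and 2 reads in libraries 1 and 2, and the small-conductance channel Kcnn3 had 1 read in library 1 alone.

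The voltage-gated potassium channels were the largest class, with 16 genes listed. Kcnq1, known from the delayed rectifier current of the heart and inner ear, had 48 reads in library 1 and 2 in library 2, a share 21.1 times as high in library 1 (5.53 to 179). Kcnq5, which contributes to the neuronal M current, went the other way, with 2 reads in library 1 and 13 in library 2. The M current subunit Kcnq3 had 4 reads in library 1 and none in library 2. Within this one family of paralogs each library therefore had its own leading gene. That was common here, for 750 of all listed genes reached 10 reads in one or both libraries and 43 reached it in both.

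The ether-a-go-go channels showed the same split between paralogs. Kcnh5 had 29 reads in library 1 and 5 in library 2, and its close relative Kcnh1 had 2 in library 1 and 27 in library 2. The share of Kcnh1 was 15.4 times as high in library 2 as in library 1 (3.86 to 133), and that of Kcnh5 was 5.10 times as high in library 1 as in library 2 (1.95 to 16.9). Kcnh7, of the ERG branch, had 5 reads in each library and Kcnh8 had 1 in library 1 and 2 in library 2. Of the A-type channels of the Shal family, Kcnd2 had 2 reads in each library and Kcnd3 had 2 in library 1 and 1 in library 2. The delayed rectifier Kcnb2 had 2 reads in library 1 alone, and the fast-spiking channels Kcnc2 and Kcnc4 had 3 and 2 in library 2 alone. The silent subunits Kcng3 and Kcns1, which form no channel by themselves, had 1 read each in library 1, and Kcng3 also 1 in library 2.

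Of the 2-pore potassium channels, which carry background current, Kcnk12 had 31 reads in library 2 and none in library 1. Its share in library 2 was 0.0636% (0.0432 to 0.0902), and the interval for its share in library 1 reached up to 0.00665%. With library 1 set to a chosen floor of 3 reads, its share in library 2 was 11.8-fold higher. That figure depends on the floor and is not a lower bound. Kcnk12 belongs to the THIK subfamily, whose other member, Kcnk13, had 3 reads in library 1 and 2 in library 2. The mechanosensitive Kcnk2 had 2 reads in library 1 alone, Kcnk10 had 1 in library 1 and 2 in library 2, and Kcnk16 had 1 in library 1 alone. Inward rectifiers were scarce, with Kcnj3 (2 reads) and Kcnj9 (1 read), both subunits of G protein-gated channels, listed in library 1 and none of the class in library 2.

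Accessory subunits of potassium channels followed. Dpp6, a transmembrane partner of the Shal channels, had 1 read in library 1 and 15 in library 2, a share 17.1 times as high in library 2 with a wide interval (2.62 to 718). Its paralog Dpp10 had 5 and 6 reads in libraries 1 and 2 and so was near even. Kcnip4, a calcium-binding partner of the same channels, and the cytoplasmic beta subunit Kcnab1 each had 4 reads in library 1 and 2 in library 2. Kcnmb3, a beta subunit of BK channels, had 1 read in library 1 alone.

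Among the pores of voltage-gated calcium channels, Cacna1c had 88 reads in library 1 (0.159% of the library, 0.127 to 0.196) and 5 in library 2. It encodes the main L-type pore of heart and brain, and its share was 15.5 times as high in library 1 as in library 2 (6.39 to 48.8). The other L-type pores were Cacna1d, with 1 read in library 1 and 5 in library 2, and the skeletal muscle gene Cacna1s, with 2 in library 1 alone. The presynaptic pores Cacna1a and Cacna1b had 2 and 1 reads in library 1, and Cacna1b 1 in library 2. Cacna1e had 3 reads in library 1 and 1 in library 2, and the T-type pore Cacna1i had 1 in library 1. In this class library 1 had 98 reads and library 2 had 12, of which Cacna1c took most in library 1.

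The accessory subunits of calcium channels had more reads in library 2, with 23 in library 1 and 115 in library 2. The alpha2delta subunits are extracellular proteins that bring the pore to the membrane, and 2 of them carried most of the reads of library 2. Cacna2d3 had 6 reads in library 1 and 65 in library 2, a share 12.3 times as high in library 2 (5.36 to 34.8). Cacna2d2 had 4 reads in library 1 and 45 in library 2, a share 12.8 times as high in library 2 (4.66 to 49.0). Their paralogs Cacna2d1, a target of gabapentin, and Cacna2d4 had 3 and 1 reads in library 1 and none in library 2. Of the cytoplasmic beta subunits, Cacnb2 had 6 reads in library 1 alone and Cacnb3 and Cacnb4 had 1 each in library 2 alone. The gamma subunit genes, of which Cacng2 encodes the AMPA receptor partner stargazin, had 1 or 2 reads in each library that listed them.

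Sodium channels had few reads apart from Scn8a. This gene, for a channel of the axon initial segment and nodes of Ranvier, had 2 reads in library 1 and 36 in library 2, a share 20.5 times as high in library 2 (5.27 to 175). The other listed pore genes, of which Scn1a, Scn4a, Scn7a, Scn9a, Scn10a and Scn11a are examples, had 1 or 2 reads in library 1, and in library 2 Scn7a and Scn10a had 1 each. In the RefSeq gene order Scn1a, Scn9a and Scn7a are direct neighbours, as are Scn10a and Scn11a. Every one of these 5 neighbours was listed in library 1, at 1 or 2 reads each. Other sodium channel genes that have a neighbour of the family, namely Scn3a, Scn2b and Scn4b, had no reads in either library. Scn1a, Scn9a and Scn7a are in the longest of the 10 length classes described below, and Scn10a and Scn11a in the next. Library 1 listed 71.5% and 42.8% of all genes in these 2 classes.

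For the channels of internal calcium stores, all 6 genes were listed in library 1 and 4 in library 2. Itpr1, the main inositol trisphosphate receptor of neurons, had 179 reads in library 1 (0.323% of the library, 0.277 to 0.374) and 1 in library 2. With a single read in library 2, its ratio of 157 has a wide interval of 27.9 to 6251, which covers counting error alone. Itpr2 had 4 and 2 reads in libraries 1 and 2, and Itpr3 had 1 in library 1 alone. No ryanodine receptor differed between the libraries as much as Itpr1. Ryr2, the cardiac form, had 7 reads in library 1 and 2 in library 2, Ryr3 had 3 in library 1 and 13 in library 2, and the skeletal muscle form Ryr1 had 1 in library 1 alone.

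HCN and TRP channels, which pass several cations, reached 10 reads in neither library. Trpm3, a heat- and steroid-sensitive channel, had 7 reads in library 1 and 5 in library 2, and the diacylglycerol-gated Trpc6 had 3 and 5 in libraries 1 and 2. The cold sensor Trpm8 and Trpv2 had 1 read in each library. Among the other listed TRP genes, Trpc1 and Trpm4 had 2 reads each and Trpc7, Trpm1, Trpm6 and Trpv3 had 1 each in library 1, and Trpc5 had 2 and Trpv5 had 1 in library 2.

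A gene was called as leaning to a library if it had 10 or more reads there and a share at least 10 times that in the other library, with a gene not listed set to 3 reads. The 4 channel genes that leaned to library 1 were Kcnt2, Itpr1, Cacna1c and Kcnq1, and the 6 that leaned to library 2 were Cacna2d3, Cacna2d2, Scn8a, Kcnk12, Kcnh1 and Dpp6. The call for Kcnk12, not listed in library 1, depends on the chosen floor of 3 reads. Over all 5614 listed genes, 5.45% leaned to library 1 and 3.28% to library 2, and 13.4% reached 10 reads in one or both libraries. The 3 channel genes at 10 or more reads in a library that did not lean were Kcnh5, Ryr3 and Kcnq5. With redundant reads Cacna2d2 and Kcnk12 lost the call, while Itpr2 and Trpm8 gained it for library 2 and Cacna1b and Cacna1d for library 1. With totals that left out the 10 leading genes of each library Kcnq5 gained it, for 7 genes leaning to library 2. All 4 genes leaning to library 1 encode pores, and 3 of the 6 leaning to library 2 encode accessory subunits. Among the channel genes listed in either library, 63 encode pores and 16 encode accessory subunits, so most listed genes are pores. This description of 10 leaning genes was not tested, and no contrast between the libraries is drawn from it.

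The rule sees only genes with reads, so the family was also counted in the RefSeq gene table. It holds 167 channel genes by the same symbol rule, and 81 of them (48.5%) were listed in either library, against 26.6% of all 21035 genes. This count includes 2 genes that the tables carry under older symbols outside the rule, Scn2a1 (now Scn2a) with 2 reads and Xntrpc (now Trpc2) with 1, both in library 1. Library 1 listed 43.1% of the family and 19.9% of all genes, and library 2 listed 28.1% of the family and 15.0% of all genes. The listed part ranged widely by class, with no test of the difference. All 6 genes of internal calcium release and 9 of 10 sodium channel pores were listed in either library, as were 7 of 10 calcium channel pores and 14 of 21 TRP genes. In contrast 16 of 40 voltage-gated potassium channels, 5 of 14 2-pore channels, 5 of 19 potassium channel accessory genes, 2 of 15 inward rectifiers and 1 of 4 HCN genes were listed. All 8 annotated genes of the Kcna family, which encode Shaker-type channels, were without reads in both libraries. They lie in classes 2 to 7 of the 10 length classes described below. In those classes 2.38% to 30.7% of all genes were listed in either library, so most genes of such lengths were without reads.

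**Figure D2:**
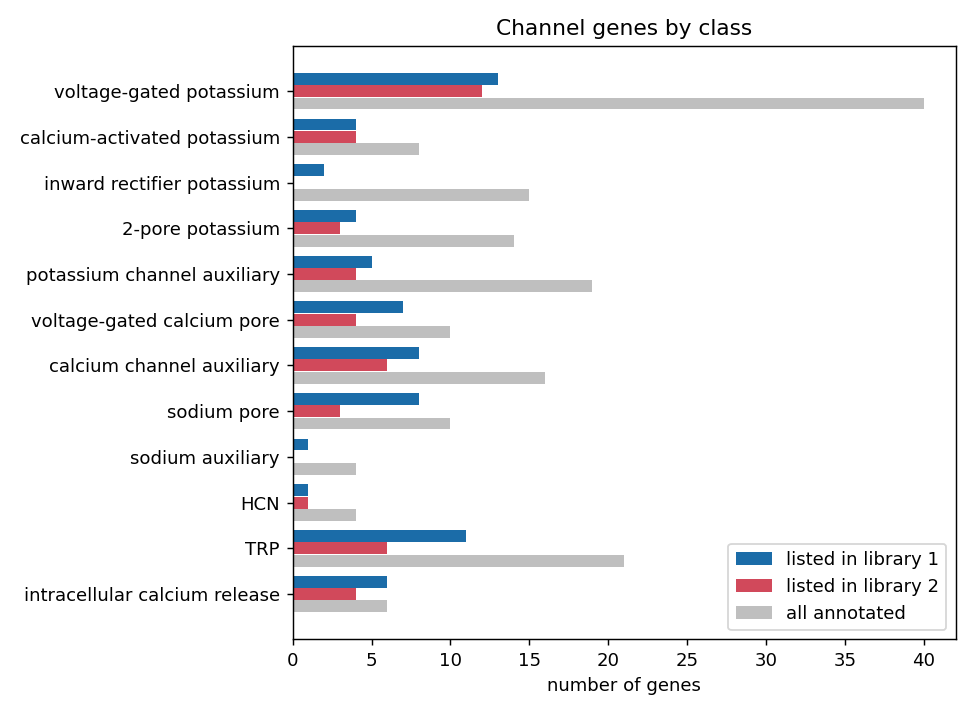
Number of channel genes per class that were listed in library 1, listed in library 2 and annotated in the RefSeq gene table. In voltage-gated potassium channels 13 and 12 of 40 genes were listed in libraries 1 and 2, and in intracellular calcium release 6 and 4 of 6.

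Gene length moved with these counts. When the 21035 genes were split into 10 classes of nearly equal size by length, the longest class held 56 of the 167 channel genes. In that class library 1 listed 85.7% of the channel genes and 71.5% of all genes, and library 2 listed 60.7% of the channel genes and 58.2% of all genes. In the next class the shares were 47.8% of channel genes and 42.8% of all genes in library 1, and 26.1% and 29.3% in library 2. In these 2 classes channel genes were closer to all genes of the same class than the whole family was to all genes, and genes within the longest class still differ in length. Of the 13 channel genes with 10 or more reads in a library, 12 were in the longest class, and Kcnk12 was in class 8. Over all genes at 10 or more reads, 282 of 499 in library 1 and 157 of 294 in library 2 were in that class. Within it, 8.93% of channel genes and 13.4% of all genes had 10 or more reads in library 1. In library 2 these shares were 12.5% and 7.46%. Even in the longest class 5 channel genes had no reads, namely Trpc4, Kcnn2, Kcnj6, Kcnip1 and Kcnmb2. The part of length in the differences between channel classes was not tested.

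**Figure D3:**
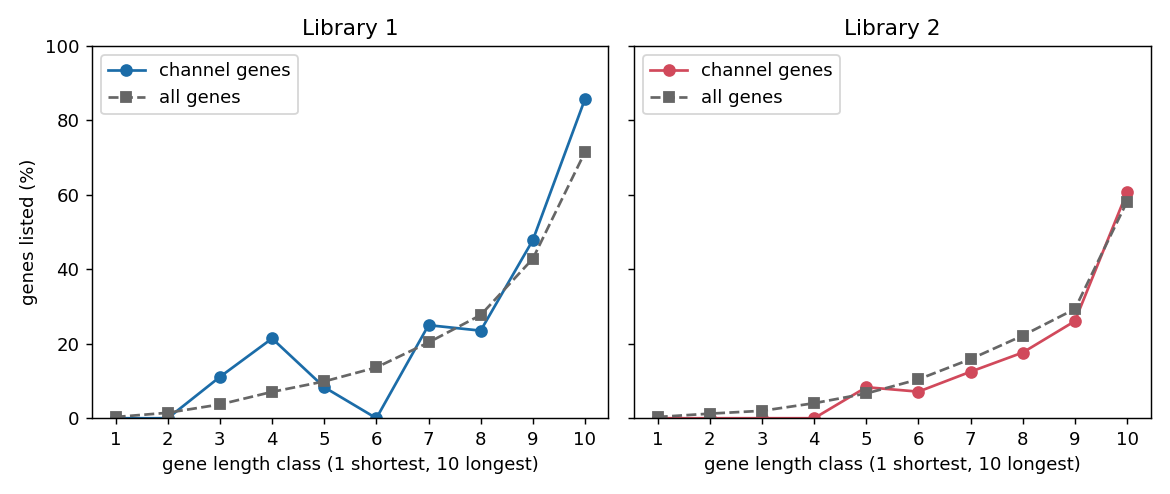
Percentage of genes listed in library 1 (left) and library 2 (right) by gene length class, from the shortest (1) to the longest (10), for channel genes (circles) and all genes (squares). Both curves are highest in class 10, at 85.7% of channel genes and 71.5% of all genes in library 1, and 60.7% and 58.2% in library 2; the shorter classes hold 1 to 23 channel genes each.

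Redundant reads kept the order of the 4 leading genes of library 1 and gave library 2 other leaders. Kcnt2 had 8229 redundant reads in library 1, or 65.7% of all redundant reads in channel genes there, at 42.6 redundant reads per nonredundant read. Itpr1 had 3080, Cacna1c 541, Kcnq1 219 and Kcnh5 33, which gave 17.2, 6.15, 4.56 and 1.14 redundant reads per nonredundant read. The library 1 totals gave 15.8, and the median of all genes with 10 or more reads there was 4.53. In library 2 the 8 leading channel genes ranged from 1.03 in Kcnk12 (32 redundant reads) to 5.73 in Dpp6 (86), with a median of 3.15, against a median of 4.55 over all genes with 10 or more reads and 26.7 for the library totals.

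A few channel genes had many redundant reads behind very few nonredundant ones. In library 2, Kcnt2 had 616 redundant reads at 3 nonredundant reads and Itpr2 had 561 at 2, and these were the channel genes with most redundant reads in that library. Trpm8 had 62 at 1 in library 2, and in library 1 Cacna1d had 119 at 1 and Cacna1b 49 at 1. Genes with 20 or more redundant reads per nonredundant read numbered 2 of the 61 channel genes with 1 to 5 nonredundant reads in library 1 and 3 of 38 in library 2. Over all genes with 1 to 5 nonredundant reads these shares were 2.09% and 3.38%. In 38 of 70 channel genes of library 1 and 19 of 47 of library 2 both counts were equal, against 56.4% and 56.2% of all listed genes.

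**Figure D4:**
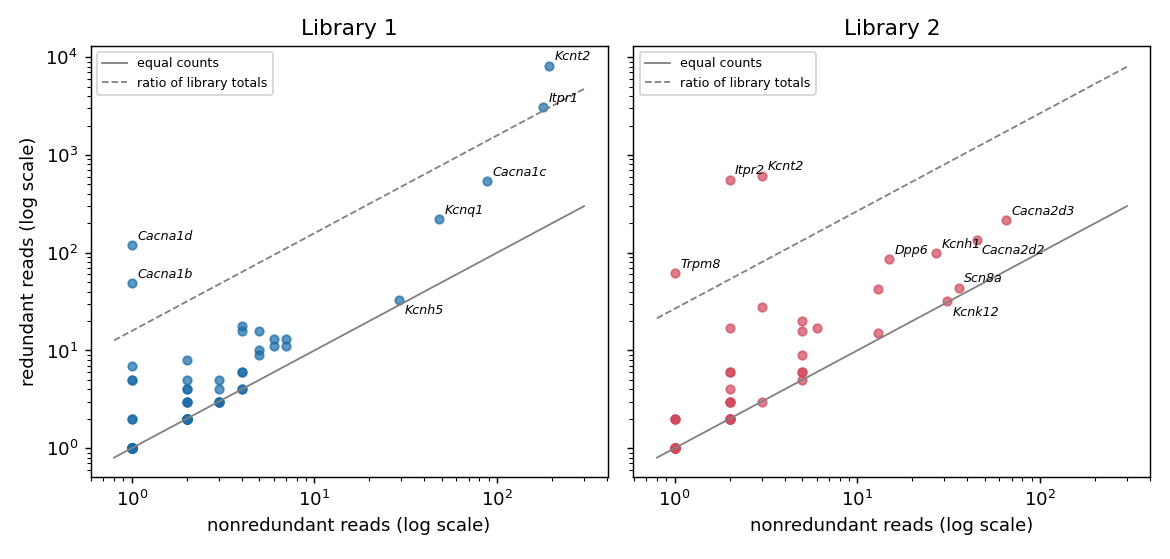
Redundant against nonredundant reads per channel gene, both on log scales, in library 1 (left) and library 2 (right), where the solid line marks equal counts and the dashed line the ratio of the library totals. Kcnt2 in library 1 (193 and 8229) and Itpr2 and Kcnt2 in library 2 (2 and 561, 3 and 616) lie above the dashed line, while Kcnk12 in library 2 (31 and 32) lies close to the solid line.

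Genes whose products work with these channels were read in the same way. Of 38 scaffold, regulator and accessory genes, 22 were listed in either library, or 57.9% against 26.6% of all annotated genes. Those at 10 or more reads numbered 4 of 16 listed in library 1 and 6 of 19 in library 2, against 11.9% and 9.28% of all listed genes, and gene length was not taken into account. The list was chosen with earlier results of these data known, so its distance from the background may come from that choice. Fgf14, which binds sodium channels at the axon initial segment, had 3 reads in library 1 and 96 in library 2, and Ank3, the ankyrin that anchors them there, had 5 and 66 in libraries 1 and 2. Unc80, a subunit of the sodium leak channel complex, had 2 in library 1 and 48 in library 2. The kinase gene Sgk1 (62 and 1 reads in libraries 1 and 2) and Akap6, an anchor of protein kinase A (37 reads, library 1 alone), leaned to library 1. The call for Akap6 depends on the chosen floor of 3 reads.

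Of 83 annotated genes in channel families outside the rule, 38 were listed, or 45.8% against 26.6% of all annotated genes. These families too were chosen with earlier results of these data known, and gene length was not taken into account. The leaders were Catsperb, a subunit of the sperm calcium channel, with 210 reads in library 1 and 1 in library 2, and the acid-sensing channel Asic2, with 40 and 85 reads in libraries 1 and 2. Pkd1l3 had 53 in library 1 and 1 in library 2, the calcium store sensor Stim2 had 41 and 1, and the mechanosensitive channel Piezo2 had 5 and 24.

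Some channel genes overlap other annotated genes. Kcnq1 overlaps the antisense RNA gene Kcnq1ot1, which was not listed, Cacna2d3 overlaps Lrtm1 and Dpp6 overlaps Speer4b, neither of them listed, and Cacna1c overlaps Dcp1b, which had 2 reads in library 1 and 3 in library 2. The leading genes Kcnt2 and Itpr1 overlap the noncoding genes 4930590L20Rik and Mir7661, neither of them listed. Whether noncoding genes could be listed at all is not known here. Each listed gene has its own counts, but whether reads were assigned by strand is not given in the sources used here. How reads in a shared stretch were divided within such pairs is therefore not known.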

How the data were processed

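Per the file headers, the columns of a deposited table are gene symbol, transcripts, and nonredundant and redundant reads as raw counts. The counts are whole numbers with no normalization, and the authors pooled 2 samples per table. Per the submitters' processing notes, CASAVA and BWA were used with build mm9. Read assignment and the meaning of nonredundant are not given in the sources that were used.

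Symbols were matched to RefSeq genes of GRCm38.p6 through transcripts, then symbol or synonym, and all 79 channel genes matched. This build differs from the authors', so its lengths served only to order genes and its positions only to find neighbours and overlaps. The background was the 21035 genes with a curated coding transcript. Shares carry exact Clopper-Pearson intervals and ratios of shares exact conditional binomial intervals (Python 3.11.15, scipy 1.17.1), checked on simulated data. With 1 table per library no test was run.

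Members and lists were chosen with earlier results of these data known. Named are genes with 10 or more reads, the 5 leaders of each class, genes that had at least 2 reads in each library and the 5 leaders of each other list. Further listed channel genes were also given, after their values were seen. Some members are not reported here by name and remain in the counts.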

Additional observations from a re-analysis of the deposited data

How the results depend on the processing

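Counts of listed channel genes depended mostly on the minimum. At 2 nonredundant reads 40 genes remained in library 1, 22 in both libraries and 50 in either, and at 10 reads 5 in library 1, 8 in library 2, 0 in both and 13 in either. The counts at 10 or more reads became 12 in library 1 and 15 in library 2 at 5 reads, 15 and 16 at 10 redundant reads, 5 in library 2 at 20 reads and 5 in library 2 for pores alone. The share of library reads in channel genes was 1.43% in library 1 and 0.161% in library 2 with redundant reads, 0.885% and 0.550% without the leading channel gene, and 1.47% and 1.18% without the 10 leading genes of the library. It was 0.396% in library 2 for pores alone, and 0.563% in library 1 without Kcnt2 and Itpr1. That last setting, and 2 settings for the genes that lean (redundant reads, and totals without the 10 leading genes), were chosen after seeing the data. With redundant reads 6 genes leaned to each library, and Cacna2d2 and Kcnk12 no longer leaned to library 2. With totals without the 10 leading genes 7 genes leaned to library 2, Kcnq5 among them. The cause of these changes was not tested. No paired analysis was possible because each table pools its samples, and for the same reason no sample could be left out. Most channel genes have 1 or 2 reads, a depth at which a difference between the libraries could not be detected.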
